A study of Mus musculus with 7 samples.

Results

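Reads from 10 genes of skeletal muscle, Acta1, Ckm, Myh1, Myh4, Tnnt3, Tnnc2, Mylpf, Actn3, Pvalb and Des, were followed in 7 subcutaneous (s/c) mouse pancreatic ductal adenocarcinoma (PDA) tumors as a measure of muscle RNA in the resected tissue. The genes were taken by name from the 22629 rows of the count table, and all 10 were found. Each tumor was formed in the right flank of a C57BL/6 mouse with cells of line 1242, from a KPC mouse tumor (with alleles recombined by Pdx1-Cre), that carried SpCas9 and the control guide sgScramble, and was harvested 2 weeks after inoculation. The 3 control tumors are labelled scramble and are called sgScramble tumors, or controls, 1, 4 and 5. The other 4, icOVA tumors 15, 16, 18 and 2, were formed with the same kind of cells expressing a doxycycline-inducible ovalbumin kept in the cytoplasm. Mice of the study were bought at 6 wk of age and housed for 2 wk before use, sex and exact age of these hosts are not in the labels, and visually ulcerated tumors were left out. The methods state a larger cell dose for icOVA cells and describe them as cloned from single cells. For the guide-transduced lines they describe both a puromycin-selected polyclonal line and clones made by dilution, without naming which formed these control tumors. Ovalbumin was induced with doxycycline food, and the methods are silent on the drug in hosts of these controls. The paper also describes tumors of the inducible cells with and without doxycycline. Whether these controls were such cells without the drug is not stated. The groups may therefore differ in dose, clone and drug as well as in ovalbumin, and these cannot be told apart.

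Skeletal muscle contracts by sliding of thick myosin filaments along thin actin filaments within the sarcomere, a repeating unit bounded by Z discs. Calcium released from the sarcoplasmic reticulum binds troponin on the thin filament and exposes actin to myosin. Fast fibres use particular isoforms of myosin, troponin and actinin and buffer calcium with parvalbumin, and the skin of the mouse flank lies over a thin sheet of such muscle as well as over the body wall.

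The total count per tumor ran from 30904855 to 37510591. OVA counts were 85 to 151 in controls against 3413 to 10750 in icOVA tumors, so the labels held, and the cancer cell keratin Krt19 had 364 to 822 CPM (counts scaled to library size by TMM) in every tumor. Sample titles carry the tumor numbers, which the groups do not share. Each label is a separate tumor, and that each came from a separate mouse is not stated, so p values measure the spread between these samples.

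The upstream sequences are shown for 4 genes that recur in the comparisons below. Acta1 and Ckm were lowest in the same pair of tumors, but their ratio varied. Myh1 and Myh4 are neighbors on chromosome 11, and their proportions differed between tumors. A link between sequence and counts was not tested. The sequences are the RefSeq bases on GRCm38.p6 before each gene's start, 5′ to 3′ on the gene's strand, cut short for Ckm and Myh1 where GENCODE M21 places a first exon. Capitals mark an E-box (CANNTG, the letters bound by MyoD family factors) or TATAAA on either strand.
Acta1 chr8:123894776-123895025 minus strand: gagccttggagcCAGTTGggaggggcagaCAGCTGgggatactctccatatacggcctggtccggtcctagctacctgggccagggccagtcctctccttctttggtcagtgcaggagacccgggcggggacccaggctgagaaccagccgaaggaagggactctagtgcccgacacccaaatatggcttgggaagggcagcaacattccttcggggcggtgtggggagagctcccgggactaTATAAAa
Ckm chr7:19410844-19411024 plus strand: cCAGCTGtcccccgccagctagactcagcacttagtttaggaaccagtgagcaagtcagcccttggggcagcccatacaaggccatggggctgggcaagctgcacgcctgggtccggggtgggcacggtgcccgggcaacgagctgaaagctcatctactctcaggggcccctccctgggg
Myh1 chr11:67199852-67200051 plus strand: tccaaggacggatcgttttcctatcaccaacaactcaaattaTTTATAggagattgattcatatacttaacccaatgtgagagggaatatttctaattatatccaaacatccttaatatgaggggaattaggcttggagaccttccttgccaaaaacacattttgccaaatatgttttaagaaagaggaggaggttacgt
Myh4 chr11:67237562-67237811 plus strand: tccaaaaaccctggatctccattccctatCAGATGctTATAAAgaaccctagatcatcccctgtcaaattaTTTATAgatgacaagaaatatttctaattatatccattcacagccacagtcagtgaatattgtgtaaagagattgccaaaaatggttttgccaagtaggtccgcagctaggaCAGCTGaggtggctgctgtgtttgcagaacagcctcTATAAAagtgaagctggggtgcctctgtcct

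Of the 10 genes, 8 had a RefSeq start in the sequence table, and Tnnt3 and Actn3 did not. Within 250 bases upstream, on either strand, CANNTG was present in 7 of 8 genes, counting either start of Pvalb, and in 66.2% of all 32851 windows of the same length. Its form CAGCTG, counted within CANNTG too, was present in 5 of 8 (Acta1, Ckm, Myh4, Mylpf and Des) and in 13% of all windows. A MEF2 motif, named for the myocyte enhancer factors, was present in 3 of 8 (Myh1, Myh4 and Pvalb) and in 2.92% of all, and the CArG box, which binds serum response factor, in 2 of 8 (Acta1 and Myh4) and in 1.47% of all. TATAAA was found in 3 of 8 (Acta1, Myh1 and Myh4) and in 12.4% of all. The upstream windows of Myh1 and Myh4 aligned with 160 identical bases of 250 (64%), and their longest shared run was 20 bases, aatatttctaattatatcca. In the Tnnc2 window, 233 of the 250 bases, with its CANNTG matches, lie past the start of an annotated exon of that gene. All matches here are descriptions of letters and do not show binding.

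Muscle transcripts were a small share of the RNA, readily counted in 5 tumors and nearly missing in sgScramble tumor 5 and icOVA tumor 2. Acta1, the actin of the skeletal muscle thin filament (chromosome 8, 123891769 to 123894751, minus strand, GRCm38), had 708, 1144 and 24 counts in controls 1, 4 and 5, against 780, 2001, 741 and 14 counts in icOVA tumors 15, 16, 18 and 2. One tumor in each group was far below the others of its group, and the groups overlapped. Acta1 was 132-fold higher in icOVA tumor 16 than in icOVA tumor 2 (95% exact interval 78.3 to 241) and 45.3-fold higher in sgScramble tumor 4 than in sgScramble tumor 5 (30.3 to 71.0). These intervals, and those of all shares below, cover counting error alone. In a bulk sample, fewer muscle cells and less RNA per muscle cell cannot be told apart.

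Tnnt3, the fast troponin T that ties the troponin complex to tropomyosin (chromosome 7, 142498836 to 142516009), had 257, 353 and 15 counts in controls 1, 4 and 5, against 266, 776, 263 and 10 in icOVA tumors 15, 16, 18 and 2. It followed Acta1 closely, with the same highest and lowest tumor. Tnnc2, the fast troponin C that binds calcium (chromosome 2, 164777161 to 164779967, minus strand), had 141, 119 and 5 counts in the controls, against 145, 326, 136 and 1 in the icOVA tumors. The lowest value of Tnnc2 bears on how reads were counted, since 592 of its 800 exon bases (74%) lie opposite exons of Ube2c, a cell cycle gene with 1971 to 2593 counts in every tumor.

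Myh4, the myosin heavy chain of the fastest (2B) fibres (chromosome 11, 67238029 to 67260446), had 706, 283 and 4 counts in controls 1, 4 and 5, against 569, 940, 828 and 1 in icOVA tumors 15, 16, 18 and 2. Its range over the 7 tumors, 8.23 on the log2 CPM scale with a prior count of 2, exceeded that of each of the other 9 genes. Myh1, the heavy chain of 2X fibres (chromosome 11, 67200052 to 67224575), had 78, 719 and 8 counts in the controls, against 548, 1021, 144 and 2 in the icOVA tumors. Its order differed from that of Myh4, because sgScramble tumor 1 and icOVA tumor 18 were high in Myh4 and far lower in Myh1. Mylpf, the fast regulatory light chain that sits on these heavy chains (chromosome 7, 127208890 to 127214298), had 190, 317 and 35 counts and 213, 517, 233 and 34 counts in the same order of tumors. It kept more counts in sgScramble tumor 5 and icOVA tumor 2 than Acta1 did.

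Actn3, the fast fibre actinin that anchors thin filaments at the Z disc (chromosome 19, 4861216 to 4877909, minus strand), had 71, 205 and 4 counts in the controls, against 76, 376, 118 and 7 in the icOVA tumors. Pvalb, the calcium buffer parvalbumin (chromosome 15, 78191114 to 78206400, minus strand), had 87, 23 and 0 counts in controls 1, 4 and 5, against 46, 42, 109 and 0 in icOVA tumors 15, 16, 18 and 2. Against a floor of 3 counts per library, it was at least 26.1-fold higher in sgScramble tumor 1 than in sgScramble tumor 5 and at least 33.6-fold higher in icOVA tumor 18 than in icOVA tumor 2. Ckm, the creatine kinase that restores ATP in working muscle (chromosome 7, 19404776 to 19422841), had 223, 105 and 2 counts and 188, 242, 259 and 2 counts in the same order. Pvalb and Ckm were both highest in icOVA tumor 18, whereas the other 8 genes were highest in icOVA tumor 16.

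Des encodes desmin, the intermediate filament that links Z discs and that smooth muscle cells and pericytes also make (chromosome 1, 75360329 to 75368579). It had 296, 1516 and 169 counts in controls 1, 4 and 5, against 652, 2781, 833 and 325 in icOVA tumors 15, 16, 18 and 2. It kept at least 169 counts in every tumor, whereas the other 9 genes had at most 35 in sgScramble tumor 5 and icOVA tumor 2, and sgScramble tumor 1 lay near sgScramble tumor 5 for Des (1.58-fold, 95% exact interval 1.30 to 1.92) although Acta1 differed 26.6-fold between them (17.7 to 41.7). For this reason the muscle level of a tumor was taken as the mean log2 CPM of the 9 genes other than Des.

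**Figure D1:**
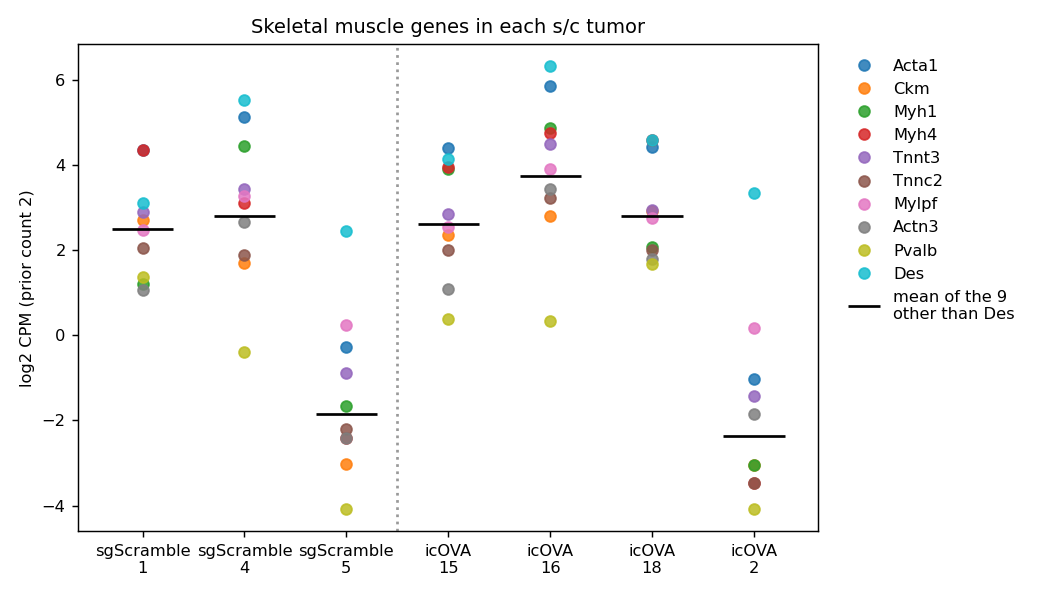
Log2 CPM (prior count 2) of the 10 skeletal muscle genes in each of the 7 s/c tumors, 1 point per gene, with a black line at the mean of the 9 genes other than Des. The means lie between 2.49 and 3.74 in 5 tumors and at -1.86 and -2.36 in sgScramble tumor 5 and icOVA tumor 2, where Des alone stays above 2.

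Muscle levels were 2.49, 2.80 and -1.86 in controls 1, 4 and 5, against 2.61, 3.74, 2.79 and -2.36 in icOVA tumors 15, 16, 18 and 2. The gap between the low tumor and the others was wider in each group than any difference among the other 5 tumors. Together the 10 genes took 0.0253% of all counts in icOVA tumor 16 (95% Wilson interval 0.0248 to 0.0259%) and 0.000861% in sgScramble tumor 5 (0.000763 to 0.000971%), with 0.00124% in icOVA tumor 2 and 0.00794 to 0.0146% in the other 4. The tumors low in muscle also had the lowest total counts, 30904855 and 32062089 against 32771160 to 37510591 in the others, and the part of depth in the result was not tested.

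Compared per kilobase of merged exons, the most abundant of the 10 genes over the tumors was Acta1, with a mean of 14.5 CPM per kb. Des followed at 7.28, Mylpf at 5.99, Tnnt3 at 5.04 and Tnnc2 at 4.47 CPM per kb. The heavy chains Myh4 and Myh1 had 2.26 and 1.63, and Ckm, Actn3 and Pvalb had 1.43, 1.22 and 1.21 CPM per kb. Within tumors, Tnnc2 exceeded its neighbor Myh4 in 7 of 7, whereas every other neighboring pair in this order changed places in at least 1 tumor, so that those levels were not separated.

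Such ranges were uncommon among other genes. The range over the 7 tumors had a median of 5.93 for the 10 genes and of 0.68 for the 17489 genes tested, and it was 3 or more in all 10 genes, in 25 of 47 other muscle genes tested and in 3.51% of all genes tested (613 genes). Of the 277 genes with such a range and a mean count of at least 50, 9 were among the 10 and 14 more belonged to the wider muscle lists, 23 in all. sgScramble tumor 5 and icOVA tumor 2 were the 2 lowest tumors in 9 of the 10 genes and in 29 of 47 other muscle genes, against 2.86% of all genes tested. The pair was picked for its low values in the 10 genes, so its count among them follows from that choice.

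**Figure D2:**
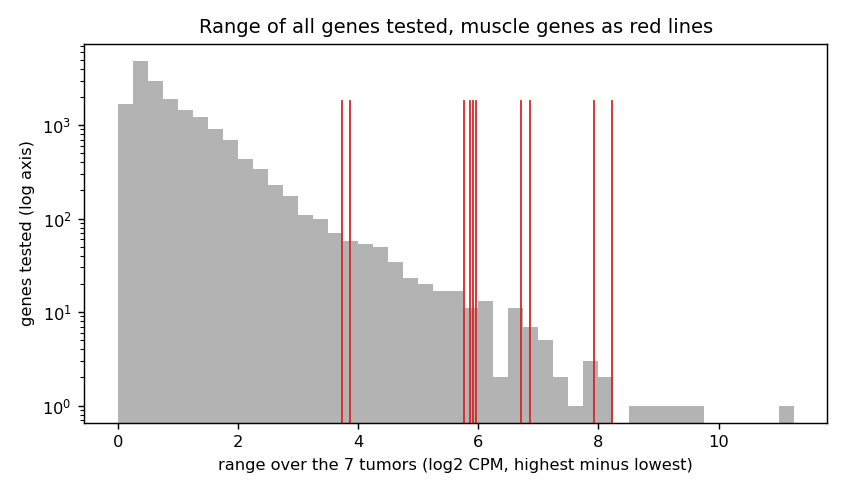
Histogram of the range over the 7 tumors (highest minus lowest log2 CPM) of the 17489 genes tested, on a log count axis, with 1 red line for each of the 10 muscle genes. The lines lie between 3.74 (Mylpf) and 8.23 (Myh4), far right of the median of all genes, 0.68.

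The comparison of icOVA with sgScramble tumors asks whether expression of the foreign antigen went with a change in muscle RNA, which would matter for any gene that muscle also expresses. None of the 10 muscle genes differed detectably between the groups. At a Benjamini-Hochberg adjusted p of 0.05, edgeR called 0 of 10, with 0 at an unadjusted p below 0.05, and DESeq2 and limma-voom called 0 each. Of the 17489 genes tested, edgeR called 5.9% in either direction, 3.36% higher and 2.54% lower in icOVA tumors, and 27.2% had an unadjusted p below 0.05, the share against which the unadjusted counts of all lists here are to be read. All 10 point estimates were above 0, from 0.38 (Pvalb) to 0.77 (Myh4), with a median of 0.58 beside -0.0048 over all genes tested, and standard errors ran from 0.86 to 1.51. These 10 values are not separate evidence of a direction, because the genes rise and fall together in the same tumors, and without icOVA tumor 16 the median was -0.24 and 6 of the 10 were below 0.

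Acta1 had 18.6 ± 17.1 CPM (SD, n = 3) in sgScramble tumors and 25.04 ± 23.7 CPM (SD, n = 4) in icOVA tumors, a log2 fold change of 0.43 (95% interval -2.54 to 3.39, adjusted p = 0.856 from edgeR). Myh4 had 9.68 ± 10.1 and 16.5 ± 12.0 CPM (SD, n = 3 and 4), with a log2 fold change of 0.77 (-2.51 to 4.05, adjusted p = 0.758 from edgeR). Ckm had 3.22 ± 3.18 and 4.88 ± 3.37 CPM (SD, n = 3 and 4), with a log2 fold change of 0.59 (-2.32 to 3.51, adjusted p = 0.792 from edgeR). The interval of every gene spanned more than a 4-fold change in icOVA tumors upward and downward except for Mylpf (-1.61 to 2.38) and Des (-1.38 to 2.81), so that equal levels in the groups were not shown either. The spread within each group, not a difference between groups, was the main feature, and the muscle level was 1.15 ± 2.61 (SD, n = 3) and 1.69 ± 2.75 (SD, n = 4).

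**Figure D3:**
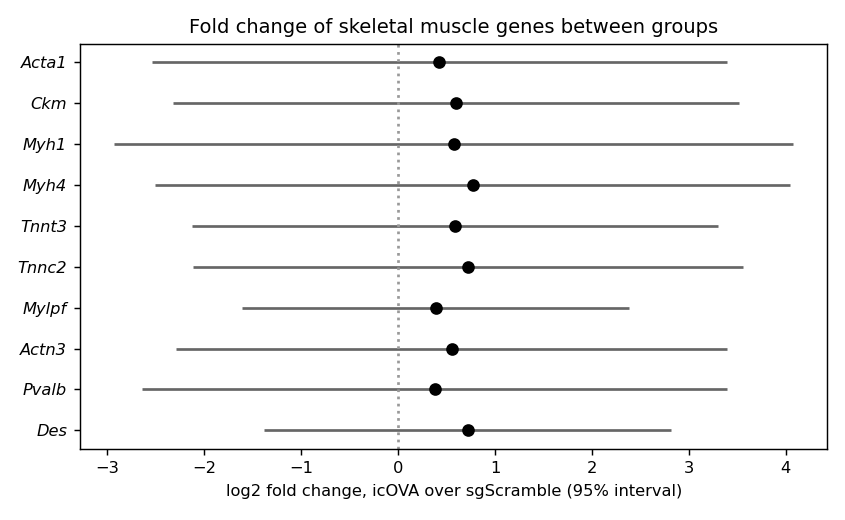
Log2 fold change of icOVA over sgScramble tumors for each of the 10 genes (points) with its 95% interval from edgeR (lines). All points lie between 0.38 and 0.77 and every interval crosses 0.

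The wider lists, of the sarcomere, calcium handling and muscle energy metabolism, held 52 further genes, of which 47 were tested and 0 were called by edgeR (4 at an unadjusted p below 0.05, and 0 called by DESeq2 or limma-voom). Their log2 fold changes had a median of 0.43. The 4 were Phkg1 (1.20, SE 0.49) and Flnc (0.44, SE 0.18), with positive estimates, and Cox7a1 (-0.68, SE 0.27) and Pfkm (-0.46, SE 0.17), with negative ones, at adjusted p values of 0.164, 0.162, 0.157 and 0.136 from edgeR. Pfkm, the muscle phosphofructokinase, and Flnc, a filamin of the Z disc, are also made outside muscle and had 28.6 to 49.8 and 41.7 to 87.4 CPM in all tumors.

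In the thick filament list, with its 3 genes among the 10 included, the summed level was 6.68 to 72.6 CPM in sgScramble tumors and 4.10 to 131 CPM in icOVA tumors, and 0 of 11 genes were called. Titin (Ttn), the giant spring of the sarcomere, had 202, 483 and 20 counts in controls 1, 4 and 5, against 235, 1158, 155 and 31 in icOVA tumors 15, 16, 18 and 2. Atp2a1, the calcium pump of fast fibres, had 409, 367 and 14 counts and 348, 997, 474 and 20 counts in the same order. Both had their lowest values in the same pair of tumors as Acta1. Tpm1 and Tpm2, tropomyosins that fibroblasts and smooth muscle also make, had 389 to 516 and 101 to 141 CPM and did not follow this order, and thus the thin filament sum of 552 to 788 CPM was dominated by them. Srl (4.45 to 7.88 CPM), a calcium-binding protein of the reticulum, Jph2 (3.76 to 6.27 CPM), which anchors it to the surface membrane, and Eno3 (11.4 to 19.8 CPM) and Fbp2 (2.71 to 10.2 CPM), enzymes of sugar metabolism, varied little beside the 10 genes. Tnni2, a troponin of the thin filament list, kept 312 and 275 counts in sgScramble tumor 5 and icOVA tumor 2, beside 345 in icOVA tumor 18. The 10 genes and the wider lists without Tpm1, Tpm2, Pfkm and Flnc make 58 genes. Their share of all counts was 0.00703% in sgScramble tumor 5 and 0.00657% in icOVA tumor 2. Among the other tumors it ran from 0.0188% in sgScramble tumor 1 to 0.0570% in icOVA tumor 16.

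**Figure D4:**
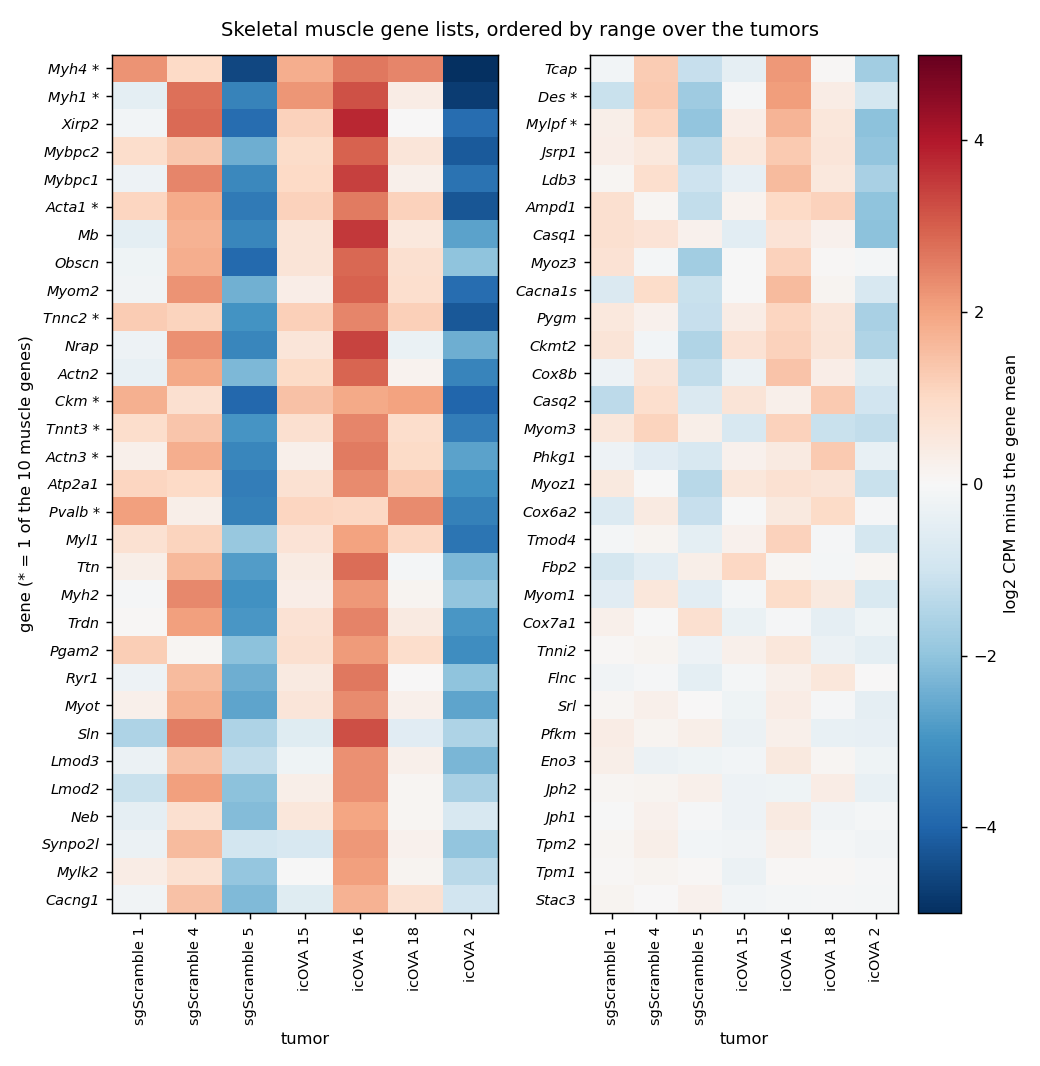
Log2 CPM minus the mean of the gene for the 10 genes (starred) and the 52 further muscle genes in each tumor, ordered by range from the top of the left panel to the foot of the right one, with red above and blue below the mean. sgScramble tumor 5 and icOVA tumor 2 are blue and icOVA tumor 16 is red in most of the left panel, and Tpm1, Tpm2, Pfkm and Flnc on the right are near white.

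The 5 tumors with higher muscle levels did not carry the same muscle transcripts. Among the counts of the fast heavy chains Myh1, Myh2 and Myh4, Myh4 took 88.5% in sgScramble tumor 1 (95% Wilson interval 86.1 to 90.5%) and 83.8% in icOVA tumor 18 (81.4 to 86.0%). It took 50.04% in icOVA tumor 15 (47.1 to 52.9%), 46.2% in icOVA tumor 16 (44.1 to 48.4%) and 26.1% in sgScramble tumor 4 (23.6 to 28.8%). Myh1 had most of the remainder, 9.77% in sgScramble tumor 1, 14.6% in icOVA tumor 18, 48.2% in icOVA tumor 15, 50.2% in icOVA tumor 16 and 66.3% in sgScramble tumor 4. Myh2, the heavy chain of 2A fibres, had 1.62 to 7.56% and was highest in sgScramble tumor 4. The highest and the lowest Myh4 share were both in sgScramble tumors, so the groups overlapped, and sgScramble tumor 5 and icOVA tumor 2 had only 12 and 5 counts of the 3 genes. Of the distinct 76-base windows of Myh1 transcripts, 15.5% occur in transcripts of another gene, mostly other Myh genes, and of those of Myh4, 9.38%, so that some reads could not be assigned to 1 heavy chain by sequence.

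**Figure D5:**
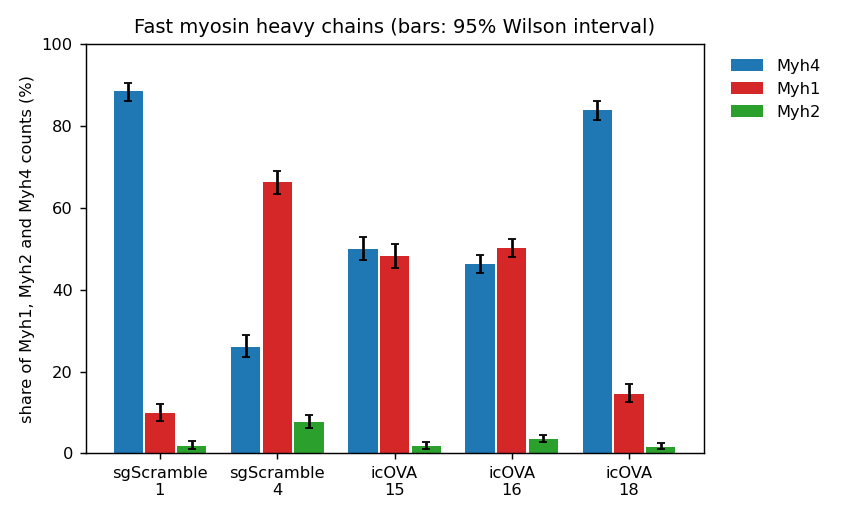
Share of Myh4, Myh1 and Myh2 in their summed counts (percent) in the 5 tumors with at least 100 such counts, with 95% Wilson intervals that cover counting error alone. Myh4 falls from 88.5% in sgScramble tumor 1 to 26.1% in sgScramble tumor 4, where Myh1 has 66.3%.

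Relative to Acta1, the other 9 genes varied to different degrees. Ratios were taken in the 5 tumors with at least 100 Acta1 counts and are counts, not scaled to gene length. Mylpf had 25.8 to 31.4 counts per 100 Acta1 counts, a 1.22-fold spread, and Tnnt3 30.9 to 38.8, a 1.26-fold spread. Tnnc2 and Actn3 varied 1.92-fold and 1.93-fold. Des ran from 41.8 in sgScramble tumor 1 to 139 in icOVA tumor 16, a 3.32-fold spread. Ckm ran from 9.18 in sgScramble tumor 4 to 34.95 in icOVA tumor 18, a 3.81-fold spread. Pvalb ran between the same tumors from 2.01 to 14.7, a 7.32-fold spread. Myh4 again had the same extremes, 24.7 and 112, and Myh1 ran from 11.0 in sgScramble tumor 1 to 70.3 in icOVA tumor 15. Myh4, Ckm and Pvalb thus shared the tumor in which their ratio was lowest and the tumor in which it was highest.

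A further set of genes, chosen after their values were seen, was highest, relative to Acta1, in sgScramble tumor 4 and icOVA tumor 16. Xirp2, an actin-binding protein of striated muscle, had 34.7 and 40.1 counts per 100 Acta1 counts in sgScramble tumor 4 and icOVA tumor 16, 17.9 in icOVA tumor 15, and 7.34 and 7.83 in sgScramble tumor 1 and icOVA tumor 18. Nrap, which is found at growing myofibril ends, had 21.2 in icOVA tumor 16 and its next highest ratio in sgScramble tumor 4, with 8.08 in icOVA tumor 15, and 4.52 and 4.05 in sgScramble tumor 1 and icOVA tumor 18. Mb, the oxygen store myoglobin, had 5.33, 11.3, 3.97, 1.69 and 3.64 in the same order of tumors. Mybpc1, a myosin-binding protein, ranged from 4.52 to 21.6. sgScramble tumor 4 and icOVA tumor 16 were the 2 highest tumors in 6 of the 10 genes and in 29 of 47 other muscle genes, against 2.92% of all genes tested. This pair was likewise picked after the values were seen, so these counts describe it and are not separate support.

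Genes of new muscle fibres were read mainly in the same pair of tumors, and Myh8 and Myh3 in icOVA tumor 18 too. Of the list of regeneration and muscle stem cell genes, 8 of 11 had a row in the table and 1 passed the filter on low counts. Myog, the factor that drives myoblasts to differentiate, had 21 counts in sgScramble tumor 4 and 41 in icOVA tumor 16, 7 in icOVA tumor 18 and 0 or 1 in the other 4. Myh8, the perinatal heavy chain, had 17 counts in sgScramble tumor 4, 44 in icOVA tumor 16, 26 in icOVA tumor 18 and 0 or 1 elsewhere, and its log2 fold change of 1.44 (SE 1.58) did not pass the test (adjusted p = 0.586 from edgeR). Myh3, of the same list, had 7 counts in sgScramble tumor 4, 13 in icOVA tumor 16 and 9 in icOVA tumor 18. Cdh15, a cadherin of myoblasts and satellite cells, had 16 and 26 counts in sgScramble tumor 4 and icOVA tumor 16 and at most 6 in any other. Myod1 had 0 to 5 counts in all tumors, and no row was matched for Pax7, Myf5 or Mymx. Trim63, a ubiquitin ligase of muscle wasting, had 45 and 107 counts in sgScramble tumor 4 and icOVA tumor 16 and at most 7 elsewhere, while Fbxo32 (18.9 to 44.9 CPM) and Asb2 (0.99 to 1.93 CPM), the other atrophy genes with the highest levels, showed no such order. edgeR called 0 of the 2 atrophy genes tested, Fbxo32 and Asb2 (1 at an unadjusted p below 0.05). Trim63 did not pass the filter on low counts and was not tested.

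Slow fibre genes ranged less over the tumors than the 10 genes, and no row was matched for Myl2 or Myl3. Myh7, the slow heavy chain, had 0 to 3 counts in every tumor, at or below the floor of 3 counts. The slow troponins Tnnt1, Tnnc1 and Tnni1 had 1.93 to 4.10, 1.03 to 2.80 and 0.90 to 2.01 CPM, with ranges of 1.07, 1.39 and 1.10 on the log2 scale. In sgScramble tumor 5 and icOVA tumor 2, Tnnt1 had 75 and 95 counts, Tnnc1 81 and 59, and Tnni1 33 and 29. Acta1 had 24 and 14 counts there. Whether these troponin counts came from slow fibres was not tested. Casq2, of the same list, had a wider range of 2.60. It had 9 counts in sgScramble tumor 1, 13 in sgScramble tumor 5 and 11 in icOVA tumor 2, and 31 to 65 in the others. None of the 4 slow fibre genes tested was called by edgeR (1 at an unadjusted p below 0.05). Of the neuromuscular junction list, Chrnb1 had 23.9 to 57.4 CPM, Lrp4 2.81 to 6.62 and Chrna1 0.40 to 2.78 CPM, with 0 of 4 called by edgeR (1 at an unadjusted p below 0.05) and Chrnb1 called by DESeq2. Tnnt2, Tnni3 and Mybpc3, which heart muscle expresses, had 6.16 to 18.1, 3.87 to 5.98 and at most 1.007 CPM, and 0 of 4 tested genes of that list were called (1 at an unadjusted p below 0.05). Of the 8 heart muscle genes listed, 5 had a row. No row was matched for Myh6, Nppa or Nppb, and Myl7 had 0 to 8 counts.

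Summed by list, markers of other tissues that can border a flank tumor did not share the order of the muscle genes. Of the 12 smooth muscle and pericyte genes, summed at 468 to 771 CPM in sgScramble tumors and 489.6 to 944 CPM in icOVA tumors, 2 were called by edgeR, both lower in icOVA tumors. They were Cnn1, calponin (-1.47 on the log2 scale, SE 0.32), and Tagln, transgelin (-0.98, SE 0.21), with edgeR adjusted p values of 0.0430 and 0.0381, both actin-binding proteins of contractile smooth muscle and fibroblasts. limma-voom called Tagln alone (adjusted p = 0.0506 for Cnn1), and DESeq2 called both together with Synm and Rgs5, a pericyte gene whose edgeR log2 fold change was 1.17, in the other direction. Cnn1 had 64, 123 and 87 counts in controls 1, 4 and 5, against 23, 35, 38 and 42 in icOVA tumors 15, 16, 18 and 2, with no overlap of the groups. With 1 tumor left out at a time, Cnn1 did not pass edgeR's threshold in any of the 7 fits (adjusted p 0.0535 to 0.172), and Tagln passed without icOVA tumor 16 (adjusted p = 0.0440) or icOVA tumor 18 (adjusted p = 0.0240) but not in the other 5 (up to 0.169, without sgScramble tumor 5). The low muscle tumors were not the lowest in this list, which includes Des, at 494 CPM in sgScramble tumor 5 and 516 in icOVA tumor 2. They lay above sgScramble tumor 1 (468) and icOVA tumor 16 (490). They lay below icOVA tumor 15 (634), sgScramble tumor 4 (771) and icOVA tumor 18 (944).

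The adipocyte list summed to 125 to 143 CPM in sgScramble tumors and 105 to 169 CPM in icOVA tumors, highest in icOVA tumor 18 and lowest in icOVA tumor 16, with 0 of 10 genes tested called by edgeR (3 at an unadjusted p below 0.05). Fabp4, a fatty acid carrier that capillaries also make, had 14.9 to 68.1 CPM, and the lipases Pnpla2 and Lipe had 46.7 to 59.0 and 17.5 to 22.9 CPM. Adipoq, which defines fat cells, had 81, 32 and 42 counts in controls 1, 4 and 5, against 64, 2, 72 and 59 in icOVA tumors 15, 16, 18 and 2, so that the tumor with most muscle RNA had the least Adipoq. The peripheral nerve list had 72.6 to 75.8 CPM in sgScramble tumors and 65.5 to 185 CPM in icOVA tumors, and 0 of 7 genes were called by edgeR (2 at an unadjusted p below 0.05). Mbp and Pmp22, proteins of the myelin sheath, had 30.1 to 53.4 and 17.6 to 62.8 CPM. Sox10, of the same list, was far lower, from 1 count in sgScramble tumor 5 to 48 in icOVA tumor 18, and adds little to the sum. Skin keratinocyte genes were low, with 2.95 to 3.20 and 2.70 to 3.57 CPM over 5 matched genes, 0 of 3 tested genes called by edgeR (0 at an unadjusted p below 0.05), Krt14 at 2 to 15 counts and Krt10, Col17a1 and Krt15 at 1.60 to 2.30, 0.32 to 0.65 and 0.19 to 0.51 CPM. limma-voom called 0 genes of these 3 lists, and DESeq2 called Fabp4, Plin4 and Pmp22. The part of these tissues in the muscle values was not tested.

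The 10 genes were alike in their pattern over the tumors. The Pearson correlation of log2 CPM over the 7 tumors had a median of 0.93 over the 45 pairs and ran from 0.50 (Pvalb and Des) to 0.998 (Acta1 and Tnnt3). The points of each pair share their libraries and scaling, and the spread rests largely on the 2 low tumors, so the coefficients describe these tumors only. Among 14130 genes with a mean count of at least 50, 40 had a correlation of at least 0.9 with the muscle level, and 24 of these also had a range of at least 1 on the log2 scale. Of the 24, 8 were among the 10 genes, which follows from the make-up of the muscle level, and 11 of the other 16 belonged to the wider muscle lists. Outside all lists, the 10 genes most like the muscle level were ENSMUSG00000106877.3 (0.98), Fyco1 (0.97), Tubgcp6 (0.97), Dennd2c (0.96), Gm10110 (0.95), Zfp109 (0.94), Klhl11 (0.94), Dcaf7 (0.94), Kif1b (0.94) and Cmya5 (0.93). The row ENSMUSG00000106877.3 had the same counts as Pygm, the muscle glycogen phosphorylase, in all 7 tumors, and Cmya5 encodes a protein of striated muscle. These 2 had ranges of 2.67 and 3.29 on the log2 scale, and the other 8 had ranges of 0.07 to 0.76.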

How the data were processed

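RNA of 7 s/c tumors was extracted with Qiagen columns and sequenced as single reads of 76 bases after 12 cycles of amplification. The labels call the molecule polyA RNA, whereas the methods name a stranded total RNA kit. The authors deposited raw counts per gene, without normalization, in 1 table of 22629 rows (22628 Ensembl genes and OVA). The submitters' processing notes name mm10, and the aligner, counting tool, strand setting and annotation are not given in the sources used here. Symbols (22414 rows), positions and exon lengths came from GENCODE M21 (GRCm38).

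Counts were tested with edgeR 4.0.16 in R 4.3.3 (filterByExpr with a minimum count of 10 and a minimum total of 15, TMM, quasi-likelihood test, Benjamini-Hochberg adjustment over 17489 genes, threshold 0.05). DESeq2 1.42.0, limma-voom (limma 3.58.1), other scalings and filters, and omission of each tumor were alternatives. Log2 CPM has a prior count of 2. Share intervals are Wilson, and ratio intervals are exact. The script was tested on simulated data. From each further list, the text names the genes called or, where there were none, the 3 with the highest mean CPM, with defining genes near 0; other names were chosen after their values were seen. The 10 genes and all lists were chosen with earlier results of these data known. A further gene named by this rule is not reported here.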

Additional observations from a re-analysis of the deposited data

Results flagged for a closer look

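In the 4 icOVA tumors, 47 values (the 10 genes, the muscle level and the further genes named by rule) were examined for 1 tumor far from the rest, by the gap to its nearest neighbor over the whole range. With Dixon's 95% critical value for 4 samples, 5 passed, and chance flags about 1 in 20, or 2.4 of 47. Because genes of 1 tissue move together, these are not separate observations. Ckm (0.908) and Myh4 (0.902) stood out by the low value of icOVA tumor 2. That value rests on 2 counts of Ckm and 1 of Myh4, below the floor of 3 counts, and so depends on the prior count. For icOVA tumors 15, 16, 18 and 2, Ckm was at 2.36, 2.81, 2.91 and -3.05 log2 CPM and Myh4 had 3.95, 4.75, 4.58 and -3.47. Pfkm (0.846) stood out by icOVA tumor 16, with 4.95, 5.51, 4.90 and 4.84 log2 CPM in the same order. Mybpc3 (0.834) and Krt10 (0.882) stood out by icOVA tumor 18. Mybpc3 had -0.39, -0.48, 0.09 and -0.49 log2 CPM, from 21 to 35 counts, and Krt10 had 0.79, 0.73, 1.24 and 0.74 log2 CPM, from 52 to 80 counts. sgScramble tumor 5 was equally low in Ckm, at -3.03 log2 CPM, but a group of 3 was not examined in this way.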

How the results depend on the processing

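No paired analysis was possible because no tumor number occurs in both groups. No muscle gene among the 10 was called under any alternative, and the lowest adjusted p over 164 values was 0.148 (Des without sgScramble tumor 4). With all tumors kept, all 84 fold changes of the 10 genes kept their direction under other scalings, filters and tests. A filter of at least 10 counts in every tumor left 4 of the 10 genes. With single tumors left out, 10 of 70 turned below 0. Without icOVA tumor 16 these were Acta1 (-0.38), Actn3 (-0.56), Myh1 (-0.35), Tnnt3 (-0.30), Mylpf (-0.26) and Des (-0.21), without sgScramble tumor 5 Acta1 (-0.13), Mylpf (-0.08) and Pvalb (-0.19), and without icOVA tumor 18 Pvalb (-0.39). The median log2 fold change ran from -0.24 to 1.18. Over the same omissions, the fold changes ran from -0.38 to 1.25 for Acta1, -0.56 to 1.91 for Actn3, -0.35 to 3.26 for Myh1, -0.30 to 1.25 for Tnnt3, -0.26 to 1.11 for Mylpf, -0.21 to 2.24 for Des and -0.39 to 1.98 for Pvalb. The wider muscle genes called ran from 0 to 2, the 2 being Myom3 (-1.83) and Pfkm (-0.64) without icOVA tumor 16. Over all genes, DESeq2 called 2820 where edgeR called 1032, and edgeR's count ran from 0 to 1730 with each tumor left out. It was 0 without sgScramble tumor 1 (3087 at an unadjusted p below 0.05), sgScramble tumor 5 (2936) or icOVA tumor 15 (3415), 8 without icOVA tumor 2 and 1730 without icOVA tumor 16. Leaving out sgScramble tumor 5 and icOVA tumor 2 together, chosen after seeing the data, gave 0 genes called by edgeR (2260 at an unadjusted p below 0.05) and fold changes of 0.22 to 0.61 for the 10 genes. The 28 muscle levels under another prior count, scaling or gene choice moved by less than the spread within groups (SD 2.69). The 2 low tumors themselves widen that spread, so it is a loose yardstick. With a prior count of 0.5, for example, the level of icOVA tumor 2 moved from -2.36 to -3.02. Of the 10 genes most like the muscle level, 1 was among the 10 by Spearman correlation and 6 among those by deviations from the group means. In the 2 low tumors, 9 of the 10 genes had at most 35 counts, so their values there are imprecise. Total counts there were 30904855 and 32062089, beside 32771160 in sgScramble tumor 4. What caused the shifts between settings was not tested.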
